A study of Mus musculus with 18 samples.

Results

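Intermediate filaments are rope-like polymers that carry mechanical load inside cells, and which filament proteins a cell makes depends on its type and stage. Neural progenitors and radial glia build theirs mainly from vimentin and nestin. Astrocytes add glial fibrillary acidic protein, and developing neurons add alpha-internexin and then the light, medium and heavy neurofilament subunits. The genes described here are Gfap, Vim, Nes, Synm, Ina, Nefl, Nefm, Nefh and Prph. They were chosen by name as the neural members of the family, and each was represented by the probe set that has its symbol alone and the highest mean over all 18 arrays. All 9 had such a probe set, among 22180 genes that did, and all 9 were among the 19016 genes that passed a filter on low values.

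The samples were mouse neurospheres, floating clusters of neural stem and progenitor cells in culture, at day 0 and after 4 days of differentiation. The 6 groups of 3 arrays were mosaic, Pcdh19 knockout (KO) and wild type (WT) cultures at day 4 and the same cultures at day 0. A mosaic culture was a mixture of WT and KO cells in proportions that the sources used here do not give. Pcdh19, on the X chromosome, encodes a protocadherin of cell to cell adhesion, and the comparison asks how its loss, complete or in part of the cells, bears on differentiation. The knockout allele, the strain, the age of the donor animals and the culture conditions are likewise not stated in the sources used here. The submitters call the replicates technical, so p-values measure only the spread between these samples.

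Values are log2 expression values per probe set as deposited, so a difference of 1 is a 2-fold change. They cannot be set against each other between genes. Errors of differences are standard errors (SE) from limma, fitted to all 18 arrays with p-values adjusted across the 19016 genes. Calls were made below an adjusted p of 0.05. Over probe sets, Pearson's r ran from 0.981 to 0.986 within groups and 0.955 to 0.972 between days. Pcdh19 had values of 5.39 to 5.68 in KO and 6.66 to 6.85 in WT arrays at day 0, and 5.53 to 5.86 in KO and 6.81 to 6.98 in WT arrays at day 4. In mosaic cultures it had values of 6.54, 7.09 and 5.52 at day 4 and 6.03, 6.31 and 5.65 at day 0. Mosaic replicate 3 thus lay below all KO arrays of day 4 and within the KO range of day 0, and mosaic replicate 2 of day 4 lay above all WT arrays. All 18 arrays are labelled female, yet Xist, the RNA that silences 1 X chromosome in female cells, lay between 2.68 and 3.98, above its own array's 25th percentile (3.57 to 3.67) on 2 arrays. The Y-linked genes Eif2s3y, Kdm5d and Uty, chosen with Xist after their values were seen, lay at 8.24 to 9.04, 6.85 to 8.20 and 6.96 to 7.97. All 6 groups shared this, and cross-hybridisation from X-linked relatives was not tested.

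Differentiation moved 5 of the 9 genes in the same direction in all 3 kinds of culture. Gfap, Vim and Nes, 3 filament genes of glia or progenitors, fell, and Ina and Nefl, both neuronal, rose. Nefh was called in WT cultures alone, and Synm, Nefm and Prph were called in none. In mosaic cultures 2 of 9 genes rose and 3 fell, against 14.4% and 11.9% of all genes tested. In KO cultures 2 rose and 3 fell, against 15% and 12.4% of all genes. In WT cultures 3 rose and 3 fell, against 17.2% and 16.3% of all genes. The median log2 change of the 9 genes was -0.02 in mosaic, -0.08 in KO and 0.16 in WT cultures, beside 0.016, 0.023 and 0.087 over all genes tested. In these bulk samples, fewer cells of a type and less RNA per cell cannot be told apart.

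**Figure D1:**
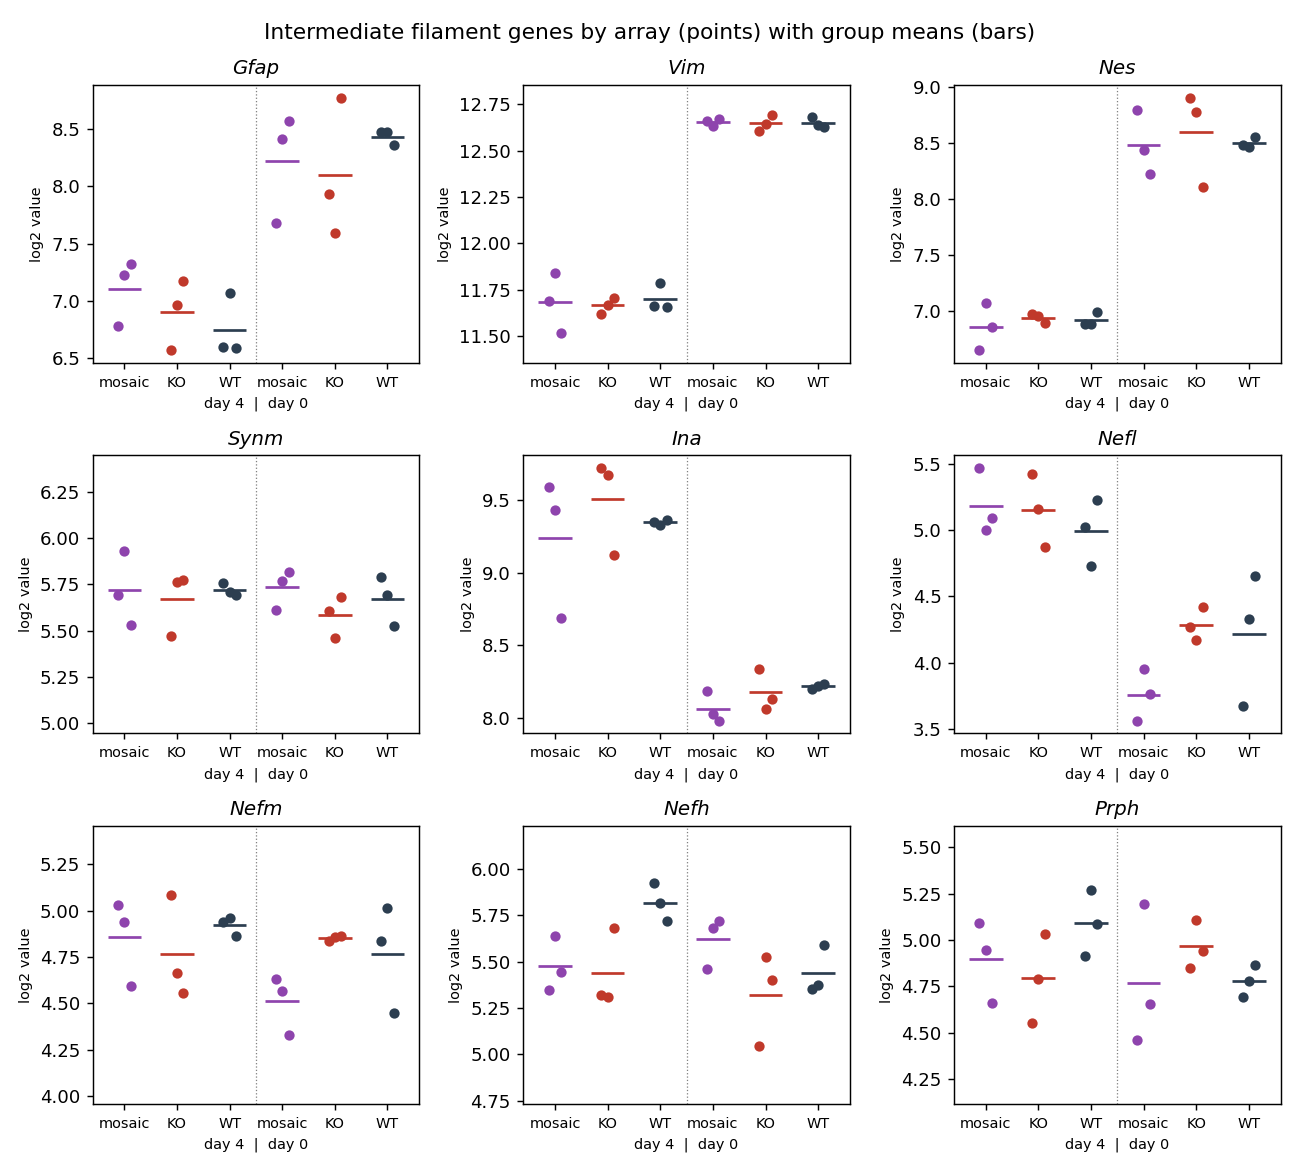
The log2 value of each of the 9 genes (vertical axis, a range of its own for each gene) on every array (points), by culture, with day 4 left of the dotted line and day 0 right of it and bars for the mean of 3 arrays. Gfap, Vim and Nes lie lower and Ina and Nefl higher on all 9 arrays of day 4 than on all 9 of day 0.

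The stretches of DNA just before the start sites of 4 of these 5 genes are shown because the transcripts of Gfap, Vim and Nes fell and that of Ina rose in all 3 kinds of culture. Nefl, which rose too, had no entry among the promoter sequences at hand, so Ina is the only rising gene shown. The stretches shown are the 250 bases before the start in RefSeq's annotation of mouse build GRCm38.p6, read 5′ to 3′ on the gene's own strand. Gfap is at chr11:102897201-102897450 on the minus strand, Vim at chr2:13574061-13574310, Nes at chr3:87970843-87971092 and Ina at chr19:47014431-47014680, all 3 on the plus strand. Capitals mark matches to 4 motifs searched on both strands, the TATA box (letters TATAAA), the CCAAT box (letters CCAAT), the GC box (letters GGGCGG) and the AP-1 site (letters TGANTCA). A minus-strand match reads as ATTGG for the CCAAT box and as CCGCCC for the GC box.
Gfap: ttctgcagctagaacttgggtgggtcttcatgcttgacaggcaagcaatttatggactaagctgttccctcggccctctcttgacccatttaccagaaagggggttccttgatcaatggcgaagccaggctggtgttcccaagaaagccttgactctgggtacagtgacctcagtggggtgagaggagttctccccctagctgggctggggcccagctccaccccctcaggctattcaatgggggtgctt
Vim: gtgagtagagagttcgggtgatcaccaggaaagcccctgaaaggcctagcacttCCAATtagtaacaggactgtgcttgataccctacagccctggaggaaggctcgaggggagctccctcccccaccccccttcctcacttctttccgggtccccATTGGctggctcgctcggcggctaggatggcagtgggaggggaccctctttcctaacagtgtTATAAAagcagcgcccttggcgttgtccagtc
Nes: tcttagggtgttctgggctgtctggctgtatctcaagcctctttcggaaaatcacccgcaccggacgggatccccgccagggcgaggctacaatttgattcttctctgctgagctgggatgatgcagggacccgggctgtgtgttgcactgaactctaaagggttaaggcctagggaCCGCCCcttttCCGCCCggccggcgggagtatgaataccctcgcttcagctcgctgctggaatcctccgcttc
Ina: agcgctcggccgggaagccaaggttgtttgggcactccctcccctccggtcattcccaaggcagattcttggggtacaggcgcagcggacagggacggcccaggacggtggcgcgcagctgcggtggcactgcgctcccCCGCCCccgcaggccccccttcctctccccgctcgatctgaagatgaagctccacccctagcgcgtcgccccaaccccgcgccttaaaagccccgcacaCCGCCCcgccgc
Vim had TATAAA 32 to 27 bases before its start and CCAAT at 196 to 192 on the plus and 94 to 90 on the minus strand. Nes had GGGCGG on the minus strand at 73 to 68 and 62 to 57, and Ina at 111 to 106 and 12 to 7. None of the 4 motifs was found in the Gfap window, which says only that these letters are not in these 250 bases, and no match overlapped another in the windows shown. Of 32851 mouse promoter windows of the same length, 12.4% held the letters of the TATA box, 33.8% those of the CCAAT box, 32.7% those of the GC box and 6.75% those of the AP-1 site. The falling genes Vim and Nes thus shared no motif of this search, while Nes and the rising Ina both held GGGCGG, a match that describes the letters and no binding.

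Gfap encodes the filament protein by which astrocytes are usually stained, and in the adult brain it is also made by neural stem cells. Its log2 values at day 4 were 6.78, 7.22 and 7.32 in mosaic, 6.57, 6.96 and 7.17 in KO and 6.60, 7.07 and 6.59 in WT cultures. At day 0 they were 7.68, 8.41 and 8.56 in mosaic, 7.93, 7.59 and 8.77 in KO and 8.47, 8.47 and 8.36 in WT cultures. Every array of day 4 was below every array of day 0, and at day 0 the mosaic and KO arrays were spread widely while the WT arrays lay close together. Gfap fell by 1.11 ± 0.27 in mosaic cultures (SE, 2.16-fold lower, limma adjusted p = 0.00521). In KO cultures it fell by 1.20 ± 0.27 (2.29-fold lower, limma adjusted p = 0.00297) and in WT cultures by 1.68 ± 0.27 (3.21-fold lower, limma adjusted p = 0.000161). The smaller falls were not shown to differ from that of WT. The difference of the changes was 0.57 ± 0.38 for mosaic minus WT (95% interval -0.24 to 1.38, limma adjusted p = 0.544) and 0.49 ± 0.38 for KO minus WT (-0.32 to 1.30, limma adjusted p = 0.711).

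Vim encodes vimentin, the partner with which nestin and glial fibrillary acidic protein co-assemble in progenitors and immature glia. At day 4 its log2 values were 11.69, 11.84 and 11.52 in mosaic, 11.62, 11.67 and 11.71 in KO and 11.66, 11.79 and 11.66 in WT cultures. At day 0 they were 12.66, 12.63 and 12.67 in mosaic, 12.61, 12.65 and 12.69 in KO and 12.68, 12.64 and 12.63 in WT cultures. The 9 arrays of day 0 spanned 12.61 to 12.69, the tightest range of the 9 genes, and all were above the 9 arrays of day 4. Vim fell by 0.97 ± 0.08 in mosaic, 0.98 ± 0.08 in KO and 0.95 ± 0.08 in WT cultures (SE). These are falls of 1.96-fold, 1.98-fold and 1.93-fold, with limma adjusted p = 1.97e-07, 1.54e-07 and 2.52e-07. The same gene has a dimmer probe set, at 8.77 to 9.39 on day 4 and 10.08 to 10.51 on day 0. It fell too, with log2 changes of -1.31 in mosaic, -1.19 in KO and -0.94 in WT cultures (SE 0.14 each), and limma adjusted p over all 41345 probe sets of 1.04e-05, 2.59e-05 and 0.000197.

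Nes encodes nestin, the filament protein used to mark neural stem and progenitor cells. Its log2 values at day 4 were 6.64, 7.07 and 6.85 in mosaic, 6.97, 6.95 and 6.89 in KO and 6.88, 6.88 and 6.98 in WT cultures. At day 0 they were 8.79, 8.44 and 8.23 in mosaic, 8.91, 8.78 and 8.11 in KO and 8.48, 8.46 and 8.55 in WT cultures. The days were separated by over 1 log2 unit on every array. Nes fell 3.1-fold in mosaic, 3.16-fold in KO and 3-fold in WT cultures, with log2 changes of -1.63, -1.66 and -1.58 (SE 0.17 each, limma adjusted p = 2.08e-06, 1.76e-06 and 2.96e-06). The 95% interval of the difference of changes ran from -0.56 to 0.47 for mosaic minus WT and from -0.59 to 0.44 for KO minus WT. For the brighter Vim probe set it ran from -0.27 to 0.22 and from -0.28 to 0.21.

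At day 0, Gfap and Nes stood opposite each other on the arrays that were spread. KO replicates 1 and 2 and mosaic replicate 1 had the 3 lowest Gfap values (7.93, 7.59 and 7.68) and the 3 highest Nes values (8.91, 8.78 and 8.79). KO replicate 3 had the highest Gfap value, 8.77, and the lowest Nes value, 8.11. The mean log2 value of 16 other astrocyte genes was lowest on the same 3 arrays as Gfap, at 8.78, 8.72 and 8.65, and highest on KO replicate 3, at 8.94. On the 3 WT arrays it was 8.83 to 8.84. The mean of 11 oligodendrocyte genes was 5.80, 5.73 and 5.71 on those 3 arrays, 6.09 on KO replicate 3 and 5.92 to 5.98 on WT arrays. The mean of 13 neural stem cell genes was 9.33 to 9.48 over all 9 arrays of day 0, and 9.44 on KO replicate 3. These values describe 9 arrays in a pattern chosen after it was seen, and the part that other cell types play in it was not tested. It bears on single comparisons: without KO replicate 3 of day 0, Nes differed between KO and WT cultures at day 0 by 0.34 in place of 0.10 and was again not called, and the fall of Gfap in KO cultures was 0.86 in place of 1.20.

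**Figure D2:**
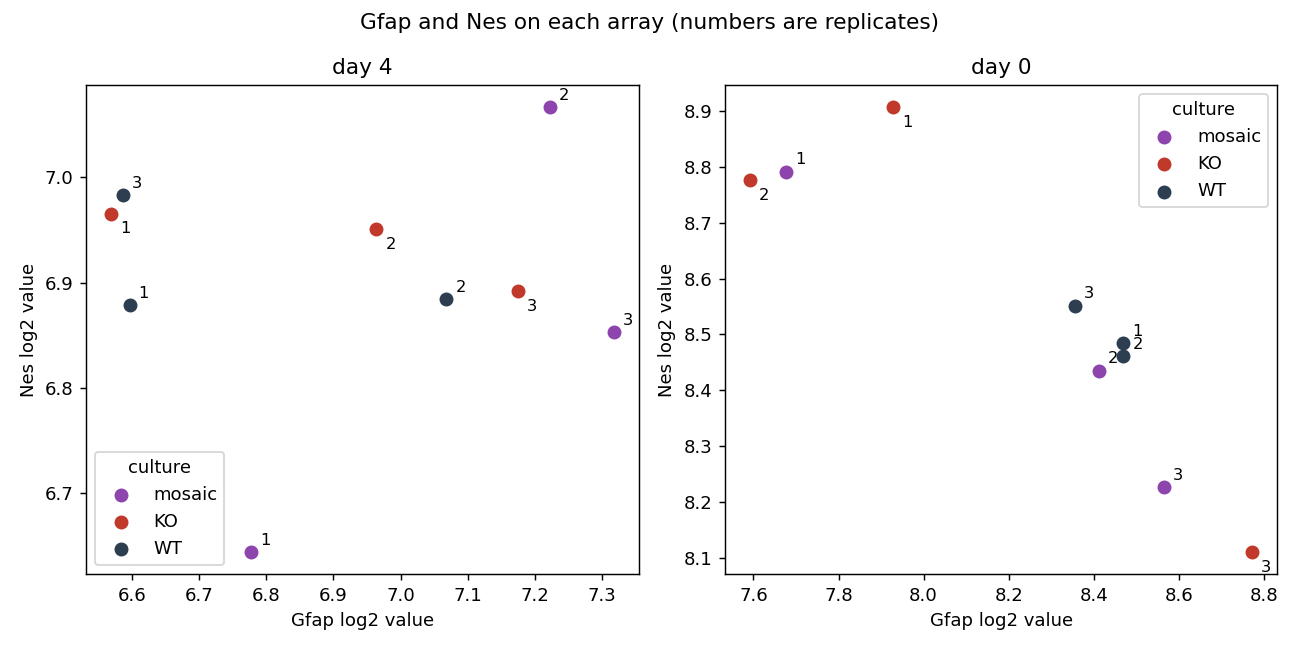
Gfap log2 value (horizontal) and Nes log2 value (vertical) on each array at day 4 (left) and day 0 (right), coloured by culture, with replicate numbers beside the points. At day 0 the KO and mosaic arrays run from low Gfap with high Nes (KO 1 and 2, mosaic 1) to high Gfap with low Nes (KO 3), and the 3 WT arrays lie together between them.

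Ina encodes alpha-internexin, a filament protein that neurons make early, before most neurofilament protein appears. At day 4 its log2 values were 9.59, 9.44 and 8.69 in mosaic, 9.72, 9.67 and 9.12 in KO and 9.35, 9.33 and 9.37 in WT cultures. At day 0 they were 8.18, 8.02 and 7.98 in mosaic, 8.34, 8.06 and 8.13 in KO and 8.20, 8.22 and 8.23 in WT cultures. All arrays of day 4 were above all arrays of day 0, and replicate 3 was the lowest of its group in the mosaic and KO cultures of day 4. Ina rose by 1.18 ± 0.19 in mosaic cultures (SE, 2.26-fold, limma adjusted p = 0.000129). It rose by 1.33 ± 0.19 in KO cultures (2.52-fold, limma adjusted p = 3.93e-05) and by 1.13 ± 0.19 in WT cultures (2.19-fold, limma adjusted p = 0.000187). The array with the lowest Ina value of day 4, mosaic replicate 3, also had the lowest mean over 21 neuronal genes, 7.12, and the highest mean over 11 cell cycle genes, 7.35. The neuronal mean was 7.40 and 7.55 on the other mosaic arrays, 7.29 to 7.68 in KO and 7.37 to 7.40 in WT cultures of day 4, and the cell cycle mean on the other 8 arrays of that day was 5.99 to 6.86. Whether these differences carry that of Ina was not tested. Without mosaic replicate 3 of day 4 the rise in mosaic cultures was 1.45.

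Nefl encodes the light neurofilament subunit, on which the medium and heavy subunits depend for assembly. Its log2 values at day 4 were 5.47, 5.0 and 5.09 in mosaic, 5.42, 5.16 and 4.87 in KO and 5.02, 4.73 and 5.23 in WT cultures. At day 0 they were 3.56, 3.95 and 3.76 in mosaic, 4.27, 4.17 and 4.42 in KO and 3.67, 4.33 and 4.66 in WT cultures. The days did not overlap in any of the 3 kinds of culture, but the signal was low: it was above its own array's 25th percentile on 16 of 18 arrays. Nefl rose by 1.43 ± 0.21 in mosaic (SE, 2.69-fold), 0.86 ± 0.21 in KO (1.82-fold) and 0.77 ± 0.21 in WT cultures (1.71-fold), with limma adjusted p = 7.16e-05, 0.00525 and 0.00983. The call in WT cultures rested on replicate 1 of day 0, without which the change was 0.50 (limma adjusted p = 0.0591). The larger rise in mosaic cultures was not separated from that in WT cultures, with a difference of 0.65 ± 0.30 (95% interval 0.02 to 1.29, unadjusted p = 0.0439 in limma, adjusted p = 0.392).

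Nefh encodes the heavy subunit, which appears late and is typical of large mature axons. At day 4 its log2 values were 5.35, 5.64 and 5.44 in mosaic, 5.32, 5.31 and 5.68 in KO and 5.92, 5.82 and 5.72 in WT cultures. At day 0 they were 5.46, 5.68 and 5.72 in mosaic, 5.04, 5.52 and 5.40 in KO and 5.35, 5.37 and 5.59 in WT cultures. The WT arrays of day 4 were above those of day 0 and above all mosaic and KO arrays of day 4, while mosaic and KO arrays of the 2 days overlapped. The log2 change was -0.14 ± 0.13 in mosaic and 0.12 ± 0.13 in KO cultures (SE, limma adjusted p = 0.502 and 0.599). In WT cultures Nefh rose by 0.38 ± 0.13 (1.3-fold, limma adjusted p = 0.0382). That call was lost when any of 4 WT arrays was left out, at limma adjusted p = 0.0756 to 0.126, and when the arrays were set to a common median, at 0.0567. The changes themselves were not separated, with a difference of -0.52 ± 0.19 for mosaic minus WT (unadjusted p = 0.0137 in limma, adjusted p = 0.315) and -0.26 ± 0.19 for KO minus WT (limma adjusted p = 0.674).

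Synm, Nefm and Prph were called in no kind of culture. Synm encodes synemin, a large filament protein that links filaments to the cell's membrane complexes. Its arrays lay at 5.47 to 5.93 at day 4 and 5.46 to 5.82 at day 0, with log2 changes of -0.02 in mosaic, 0.09 in KO and 0.05 in WT cultures (SE 0.11 each). The 95% intervals ran from -0.25 to 0.32 over the 3 kinds of culture. Nefm, the medium neurofilament subunit, lay at 4.56 to 5.08 at day 4 and 4.33 to 5.01 at day 0. Its log2 changes were 0.35, -0.08 and 0.16 in mosaic, KO and WT cultures (SE 0.15 each, limma adjusted p = 0.116, 0.755 and 0.455). A probe set that lists Nefm together with A230070E04Rik gave 0.11, -0.14 and 0.02. Neither probe set of the medium subunit gave a call. For the probe set of Nefm alone, the change in mosaic cultures had a 95% interval of 0.02 to 0.67 (unadjusted p = 0.0384 in limma). It was called under 2 of the alternative settings described below. Prph encodes peripherin, the filament protein of peripheral and some central neurons, and lay at 4.55 to 5.27 at day 4 and 4.46 to 5.19 at day 0. Its log2 changes were 0.13, -0.17 and 0.31 in mosaic, KO and WT cultures (SE 0.17 each). In WT cultures the arrays of the days did not overlap, yet the change was not called (limma adjusted p = 0.168). The 4 genes Nefm, Nefh, Synm and Prph had group means that spanned at most 0.50 over the 6 groups.

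**Figure D3:**
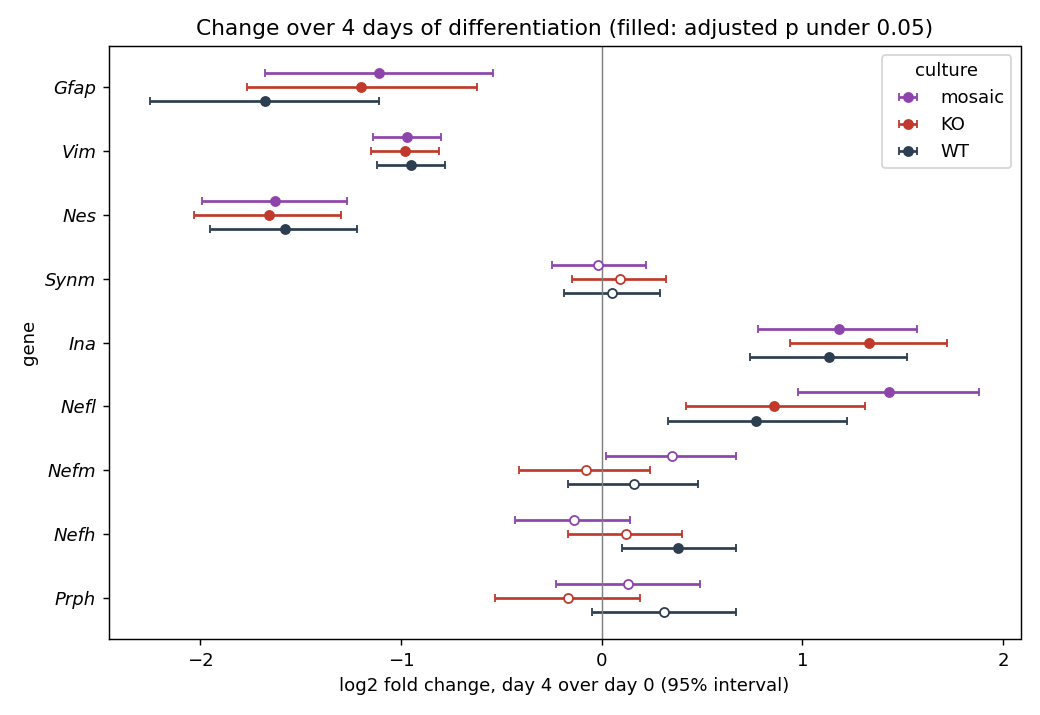
Log2 change from day 0 to day 4 (horizontal axis) of each gene in mosaic, KO and WT cultures, with 95% intervals from limma and filled points for changes with adjusted p under 0.05. Gfap, Vim and Nes lie left of 0 and Ina and Nefl right of it in all 3 kinds of culture, and Nefh is filled in WT cultures alone.

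Between cultures of the same day none of the 9 genes was called. In each of the 6 comparisons, mosaic with KO, mosaic with WT and KO with WT on both days, 0 of 9 genes passed in limma, and 0% of the 19016 genes tested did. At an unadjusted p under 0.05, limma gave 3, 1 and 0 of the 9 genes for these 3 comparisons at day 0, and 0, 1 and 1 at day 4. Over all genes it gave 806, 817 and 686 genes at day 0, and 1155, 3026 and 2411 at day 4. Over the 54 differences of the 9 genes, values ran from -0.53 to 0.36 and limma adjusted p from 0.249 to 1. Vim, by its brighter probe set, was the most tightly bounded, with differences of -0.04 to 0.02 and 95% intervals within -0.21 to 0.19. The dimmer Vim probe set is not covered by these bounds. The intervals lay within -0.48 to 0.46 for Nes, -0.66 to 0.55 for Ina, -0.91 to 0.93 for Gfap and -0.98 to 0.64 for Nefl. A Gfap or Nefl difference of up to nearly 2-fold was thus within the intervals, and the cultures were not shown to be alike. Pcdh19 itself was not called between KO and WT cultures, though its arrays did not overlap. It differed by -1.27 ± 0.26 at day 0 and -1.20 ± 0.26 at day 4 (SE, limma adjusted p = 0.855 and 0.195).

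Arrays of a day did not overlap between cultures in 5 of the 54 differences. The share over all genes was not counted, so the 5 are described and not read as a result about the 9 genes. At day 0, mosaic arrays were below KO arrays for Nefl, at 3.56 to 3.95 in mosaic and 4.17 to 4.42 in KO cultures, and for Nefm, at 4.33 to 4.63 in mosaic and 4.83 to 4.86 in KO cultures. The differences were -0.53 ± 0.21 and -0.34 ± 0.15 (SE, unadjusted p = 0.0238 and 0.0399 in limma, adjusted p = 1 for both). Ina at day 0 was at 7.98 to 8.18 in mosaic and 8.20 to 8.23 in WT cultures, with a difference of -0.15 ± 0.19 (limma adjusted p = 0.999). The remaining pair concerned Nefh at day 4, below WT by -0.34 ± 0.13 in mosaic and -0.38 ± 0.13 in KO cultures (SE, unadjusted p = 0.0213 and 0.0119 in limma, adjusted p = 0.249 and 0.283). The 2 comparisons share the WT arrays. At day 0 Nefh was higher in mosaic than in KO cultures by 0.30 ± 0.13 (SE, 95% interval 0.01 to 0.58, unadjusted p = 0.0412 in limma, adjusted p = 1), with overlapping arrays. The 3 differences of the changes over differentiation, mosaic minus KO, mosaic minus WT and KO minus WT, likewise called 0 of 9 genes and 0% of all genes. At an unadjusted p under 0.05, limma gave 0, 2 and 0 of the 9 genes, the 2 being Nefl and Nefh, beside 815, 2354 and 1809 of all genes.

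**Figure D4:**
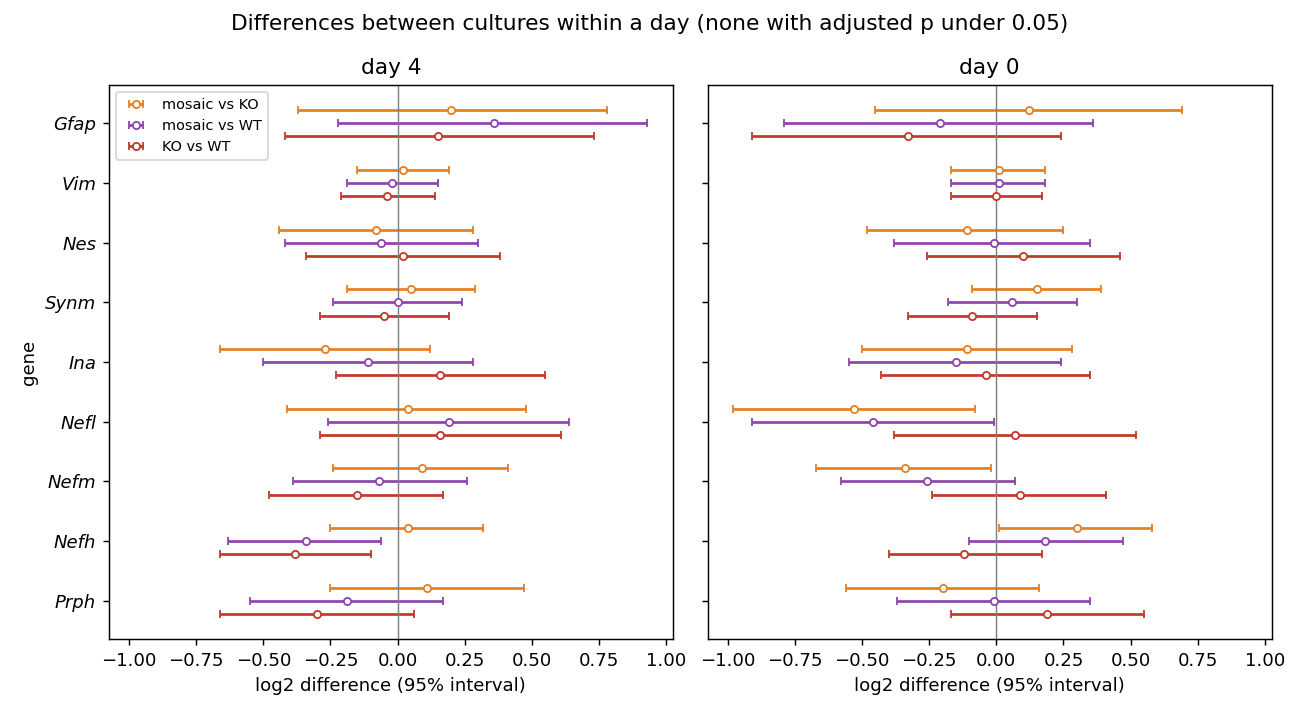
Log2 differences between cultures (horizontal axis) for each gene at day 4 (left) and day 0 (right), with 95% intervals from limma. No difference has an adjusted p under 0.05, and Vim, shown by its brighter probe set, has the narrowest intervals. Of the 6 intervals that leave out 0, those at day 4 are Nefh against WT for mosaic and KO cultures. Those at day 0 are mosaic Nefl against KO and WT, Nefm and, to the right of 0, Nefh of mosaic against KO cultures.

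Genes that serve intermediate filaments, and filament genes of other tissues, were read beside the 9. Of 12 other filament genes tested, keratins, lamins, desmin and lens filament genes among them, 1 rose and 1 fell in mosaic, 0 rose and 1 fell in KO and 0 rose and 1 fell in WT cultures. Their median log2 changes were -0.03 in mosaic, 0.00 in KO and 0.13 in WT cultures. The gene that fell was Lmnb1, which encodes lamin B1 of the nuclear lamina, at -0.71, -0.77 and -0.68 in mosaic, KO and WT cultures. The gene that rose was Iffo1, at 0.36 in mosaic cultures (limma adjusted p = 0.0433). Of 14 tested genes for linkers, chaperones, kinases and turnover factors of filaments, 4 rose and 2 fell in mosaic, 4 rose and 2 fell in KO and 4 rose and 3 fell in WT cultures, with median changes of 0.07, 0.04 and 0.28. Cryab, a small heat shock protein that binds vimentin and glial fibrillary acidic protein, rose by 1.48, 1.73 and 1.71 in mosaic, KO and WT cultures. Macf1, a giant linker of cytoskeletal filaments, rose by 0.77, 0.76 and 0.48. The mitotic kinases Plk1 and Aurkb, which phosphorylate vimentin in dividing cells, changed by -2.05, -2.39 and -2.05 and by -1.40, -1.74 and -1.49. All 11 cell cycle genes tested fell in each kind of culture, with medians of -2.22, -2.73 and -2.46.

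Gfap fell while most of the astrocyte genes read beside it rose, and genes of the reactive state, in which astrocytes respond to injury, moved both ways. Of 16 astrocyte genes other than Gfap, 10 rose and 3 fell in each kind of culture, with median log2 changes of 0.56 in mosaic, 0.63 in KO and 0.63 in WT cultures. Clu and S100b, both abundant in astrocytes, rose by 2.19 and 2.35 in mosaic, 2.36 and 2.09 in KO and 2.12 and 1.87 in WT cultures. Glul, the enzyme that makes glutamine, rose by 1.44, 1.54 and 1.59, and Agt, the precursor of angiotensin, changed by -1.77, -1.67 and -1.60. The other astrocyte genes that fell were Aldh1l1 (-0.55, -0.57 and -0.59) and Id3 (-0.93, -1.49 and -1.42), named after their values were seen. Of 21 genes of the reactive state, 3 rose and 9 fell in mosaic, 5 rose and 10 fell in KO and 3 rose and 10 fell in WT cultures, with median changes of -0.24, -0.31 and -0.14. Those that fell included Emp1 (-2.54, -2.68 and -2.49), Cd109 (-2.60, -2.54 and -2.54), S100a10 (-2.42, -2.12 and -2.19) and Cp, which encodes the copper carrier ceruloplasmin (-1.73, -1.30 and -1.59). S1pr3 (1.21, 1.76 and 1.51), Serpina3n (1.04, 1.10 and 0.86) and Ptgs2 (1.23, 0.94 and 0.63), named after their values were seen, rose in each kind of culture.

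Nes and Vim fell beside some, but not all, of the other neural stem cell genes read. Of 13 such genes, 1 rose and 8 fell in mosaic, 2 rose and 6 fell in KO and 1 rose and 8 fell in WT cultures, with median log2 changes of -0.67, -0.36 and -0.50. The matrix gene Tnc changed by -2.47, -2.69 and -2.86 in mosaic, KO and WT cultures and the Notch effector Hes1 by -2.28, -2.38 and -2.56. Hes5, another Notch effector, changed by -1.83, -1.87 and -1.91 and the growth factor receptor Egfr by -0.94, -0.87 and -0.91. The stem cell genes Sox2, Fabp7 and Nr2e1 were called in no kind of culture, and Prom1 rose by 0.73, 0.57 and 0.48. These 4 were named after their values were seen. Ina and Nefl rose beside neuronal genes, of which 13 of 21 rose and 1 fell in mosaic, 15 rose and 0 fell in KO and 16 rose and 1 fell in WT cultures. The vesicle protein gene Syt1 rose by 2.48, 2.42 and 2.45 and the RNA-binding protein gene Elavl3 by 2.31, 2.19 and 2.07. Dcx, a microtubule protein of young neurons, rose by 1.99, 1.94 and 1.74 and the microtubule protein gene Map1b by 1.78, 1.73 and 1.53. Of 5 tested genes of peripheral neurons, where peripherin is typical, 0 rose in mosaic, 1 in KO and 2 in WT cultures. All 11 oligodendrocyte genes rose in each kind of culture, with medians of 3.34, 3.24 and 3.08. The oligodendrocyte genes changed over the same 4 days as the filament genes, and their part in the results was not tested.

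Marker genes of cell types that such cultures need not hold were read as well. The mean log2 level of 8 microglia genes was 4.65 to 4.92 at day 4 and 4.56 to 4.83 at day 0, and that of 6 endothelial genes 4.54 to 4.92 at day 4 and 4.65 to 4.84 at day 0. That of 6 mural and fibroblast genes was 5.19 to 5.55 at day 4 and 4.99 to 5.25 at day 0. No background level was at hand, so these levels do not say whether such cells were present. Of the microglia genes 0 were called in mosaic, 1 lower in KO and 2 higher in WT cultures, and of the endothelial genes none. Of the mural and fibroblast genes 1 rose and 1 fell in mosaic, 1 rose and 1 fell in KO and 2 rose and 0 fell in WT cultures. The largest change was that of Pdgfrb, a growth factor receptor of pericytes, which rose by 2.11, 2.29 and 2.06.

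Among all genes tested, those with the most similar course were sought by the root mean square difference (RMS) of their 6 group means, each gene centred on its own mean. For Gfap they were Csrnp1, Pdzrn3 and Ddit3, at an RMS of 0.05, 0.08 and 0.09 log2 units. For Vim they were Ppic, Hsp90b1 and Plin2, at 0.03, 0.03 and 0.04. Nes was closest to Itga2, Rhbdl3 and Agt, at 0.04, 0.05 and 0.05. Ina was closest to Cyp4v3, Sfxn5 and Dtna, at 0.05, 0.06 and 0.07. Nefl had no gene as near in this search, with Epha3, Map3k19 and Marchf8 at 0.11, 0.12 and 0.12. The measure rests on 6 group means that fall into 2 days. The 4 genes with small spans matched others that hardly moved and are not listed.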

How the data were processed

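Total RNA, from Trizol and silica columns per the labels' protocols, was hybridised with a biotin label to Affymetrix mouse gene arrays, 1 array per sample. The deposited values are log2 expression values per probe set for 18 arrays. They ran from 0.722 to 13.97, with array medians of 4.85 to 4.99. How they were normalized, and to which log base, is not given in the sources used here, and log2 was taken from their range. No background level was at hand, and the number of arrays limits precision.

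Of 41345 probe sets, 23521 had 1 gene symbol in the platform annotation, 1814 several and 16010 none. Genes were kept where the value was above its array's 25th percentile on at least 3 arrays, which dropped 3164. In R 4.3.3 with limma 3.58.1, a mean per group was fitted (12 residual and 4.36 prior degrees of freedom) with 12 contrasts, two-sided moderated tests and Benjamini-Hochberg adjustment. The fit was tested on simulated data. No 2 arrays held identical values.

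The members and lists were chosen with earlier results of these data known. Named are all 9 genes and Pcdh19, up to 4 called genes of each list with the largest mean change, and the 3 nearest genes. Other list genes were named after their values were seen. Same-numbered samples correlated by -0.146 to 0.165 in their deviations from group means, 4 of 45 pairs above 0.1. The 9 pairs of the same kind of culture on both days ran from 0.015 to 0.164. These weak correlations do not settle whether the numbers pair samples, and the main fit did not use them as pairs. Alternatives were other normalizations, filters, probe sets, variance models, thresholds and subsets of arrays.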

Additional observations from a re-analysis of the deposited data

How the results depend on the processing

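Over the 16 called changes of the 9 genes, 460 of 467 values from the alternatives stayed called in the same direction, 7 lost the call and 0 reversed. For each change, most arrays left out 1 at a time lay outside the groups compared. Such a setting cannot move the change and alters only its p-value. The mean of probe sets likewise left the values of all members but Vim as they were. The count of calls kept therefore overstates how firm they are. The lost calls were those of Nefh and, without WT day 0 replicate 1, Nefl, both in WT cultures. The number of genes higher in WT cultures was 3, and leaving out 1 array at a time gave 1 (without WT day 0 replicate 1) to 3. Of 2677 values of changes that were not called, 2 became called, both for Nefm in mosaic cultures. They were 0.35 with the replicate block (limma adjusted p = 0.0451) and 0.47 without mosaic day 4 replicate 3 (limma adjusted p = 0.0425). The replicate block called 6328 genes in WT differentiation in place of 6386 and changed no other member's call, and 10 of 18 arrays correlated best with their own number. Over all genes, WT differentiation called 4046 genes at an adjusted p under 0.01, and quantile normalization called 4091 higher and 2556 lower in place of 3280 and 3106. Mosaic against WT at day 4 called 256 genes in place of 0 without mosaic day 4 replicate 1, none of them a member, and every other comparison of cultures called at most 10 under any alternative. Leaving out the 4 KO and mosaic arrays numbered 3, chosen after the data were seen, kept every count of members called. Low signal limits Nefl, which was not above its array's 25th percentile on 2 of 18 arrays. Nefm and Prph were above it on all 18 arrays. At 4.33 to 5.08 and 4.46 to 5.27 they lay around the array medians of 4.85 to 4.99. Whether low signal limits them too was not tested. The cause of each lost call was not tested.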
